A study of Mus musculus with 10 samples.

Results

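Intercalated cells (ICs) are the acid- and base-secreting cells of the kidney collecting duct (CD), which lie scattered among the principal cells (PCs) that take up water and sodium. Foxi1, a forkhead transcription factor, switches on the proton pump and anion exchangers of ICs, and Notch signalling between neighbouring cells holds back the IC fate in favour of PCs. 7 genes that regulate or mark ICs were followed here through the growth of mouse ureteric bud (UB) organoids and their differentiation into CD organoids. They were taken by gene name from the deposited table, each name matched 1 row, and they make up 7 of its 39273 genes. 4 encode transcription factors, namely Foxi1, Dmrt2, Tfcp2l1 and Hmx2, and 3 encode proteins of the cell surface, namely Hepacam2, Insrr and Kit.

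RNA-seq was done on 5 groups of 2 libraries each. UB organoids were grown from E11.5 mouse UBs for 5, 10 or 20 days in the expansion medium mUBCM, and the study's methods start CD organoids from UB organoids of day 10, which then spent a week in a differentiation medium, CDDM. That medium held FGF9, Y27632, aldosterone, vasopressin, the MEK inhibitor PD0325901 and DAPT, an inhibitor of the protease that releases active Notch. Strain and genotype are given alike for all 10 libraries, a cross of C57BL/6 and Swiss Webster carrying Wnt11-RFP +/-, a reporter driven by a UB tip gene. The fifth group, adult mCD, is labelled as organoids of embryonic day 11 like the others, whereas the design text and the methods describe sorted kidney cells of mice aged 2 months that carry Hoxb7-Venus, whose reporter is driven in the duct lineage, and the latter description is followed here. Nothing states whether the 2 libraries of a group came from separate cultures or animals, so the p-values below measure only the spread between these libraries.

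The counts per library summed to between 22858971 and 24536676 in the UB organoids of days 5 and 10. In those of day 20, CD organoids and adult mCD they summed to between 11913613 and 16759872. The first set and the rest also carry separate runs of sample numbers, so day 10 against day 20 or CD organoids crosses them. The part of this split in those comparisons was not tested. Levels are given as CPM, counts scaled to the library size with TMM factors, and 3 reads, the limit of detection used here, were worth 0.109 to 0.241 CPM. The markers mostly fitted the labels. The 4 UB tip genes Ret, Wnt11, Etv5 and Gfra1 summed to between 1764 and 3493 CPM in the UB organoids, to 128 and 129 CPM in the CD organoids and to between 74.3 and 89.9 CPM in adult mCD. The adult cells also held RNA of other nephron segments, with 8 proximal tubule genes at 4399 and 5239 CPM and 4 genes of the loop of Henle and distal convoluted tubule at 3718 and 3959 CPM, against at most 11.8 and 6.58 CPM in the CD organoids. Endothelial genes stood at 500 and 506 CPM in adult mCD and at most 1.93 CPM in the CD organoids.

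The promoters of the 3 transcription factor genes with the most reads in CD organoids are shown, because Foxi1 and Dmrt2 were under 1 CPM in every UB library and all 3 were called higher in the duct. They are the 250 bases before the transcription start in RefSeq on GRCm38.p6, written 5′ to 3′ on the gene's own strand, with TATAA and CCAAT elements in capitals. The windows are chr11:34208090-34208339 on the minus strand for Foxi1, chr19:25672161-25672410 on the plus strand for Dmrt2 and chr1:118627695-118627944 on the plus strand for Tfcp2l1.
Foxi1: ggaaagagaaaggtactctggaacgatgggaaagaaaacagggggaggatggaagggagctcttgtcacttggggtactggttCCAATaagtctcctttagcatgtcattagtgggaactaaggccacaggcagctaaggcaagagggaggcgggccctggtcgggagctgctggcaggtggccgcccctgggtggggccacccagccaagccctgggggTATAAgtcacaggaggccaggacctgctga
Dmrt2: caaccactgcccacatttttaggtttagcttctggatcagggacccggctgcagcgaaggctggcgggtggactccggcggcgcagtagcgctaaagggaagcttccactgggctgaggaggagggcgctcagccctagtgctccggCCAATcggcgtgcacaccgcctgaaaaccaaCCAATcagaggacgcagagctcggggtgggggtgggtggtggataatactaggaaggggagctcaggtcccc
Tfcp2l1: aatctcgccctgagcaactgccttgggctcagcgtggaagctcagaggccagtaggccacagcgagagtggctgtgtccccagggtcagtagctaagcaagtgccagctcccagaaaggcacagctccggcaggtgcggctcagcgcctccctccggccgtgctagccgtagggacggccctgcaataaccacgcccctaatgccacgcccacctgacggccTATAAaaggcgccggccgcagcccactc
The Foxi1 and Tfcp2l1 windows each hold a TATAA element, at -30 and -28 from the start, and the Dmrt2 window holds 2 CCAAT elements and no TATAA. On both strands, TATAA occurs in 22.8% and CCAAT in 33.8% of the 32851 RefSeq windows of this length. The Foxi1 window is 58.8% G and C with 4 CpG, whereas those of Dmrt2 and Tfcp2l1 are 62.4% and 65.2% with 14 and 16 CpG, and the median over all windows is 52.4%. The forkhead core TGTTTA, found in 12% of all windows, and the paired half-sites CCAGNNNNNNCCAG of the CP2 family to which Tfcp2l1 belongs, found in 2.78%, occur in no window of the 6 members matched in RefSeq, which says only that these letters are not within these bases. Insrr had no entry.

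In UB organoids 5 of the 7 genes were at or near the limit of detection on every day, and Tfcp2l1 and Kit were not. Foxi1 gave 9 and 0 reads in the day 5 libraries, 11 and 9 in those of day 10, and 2 and 14 in those of day 20, which is at most 0.926 CPM. Dmrt2, a transcription factor of the doublesex family, gave 0 reads in all 4 libraries of days 5 and 10, which allows up to 0.128 CPM, and 0 and 3 reads at day 20. Both genes were thus under 1 CPM in every UB library, and the only library in which both reached 3 reads was the second of day 20. Hmx2, a homeobox factor known from the inner ear, gave between 0 and 5 reads per library. Hepacam2, an adhesion protein of the immunoglobulin superfamily, gave between 1 and 7 reads, and Insrr, a receptor of the insulin receptor family that senses alkaline pH, between 0 and 9. For these 5 genes the days cannot be compared at this depth, since both sides of each comparison lie near the limit.

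Tfcp2l1, a CP2-type factor needed for the patterning of ICs and PCs, was the one transcription factor of the 4 with reads in every UB library. It stood at 71.1 and 108 CPM in the day 5 libraries, at 259 and 213 CPM in those of day 10, and at 80.7 and 107 CPM in those of day 20. The day 10 libraries lay above all 4 libraries of days 5 and 20, which overlapped each other. The log2 fold change was 1.40 ± 0.17 (SE) from day 5 to day 10, with an adjusted p of 3.48e-05, and -1.33 from day 10 to day 20, with an adjusted p of 6.9e-05, both by edgeR's quasi-likelihood test. Neither change reached the 4-fold that a call required in addition to an adjusted p of at most 0.01.

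Kit, the receptor for stem cell factor, was read in the UB organoids at levels close to those in adult mCD. It stood at 124 and 129 CPM in the day 5 libraries, at 126 and 153 CPM in those of day 10, and at 167 and 168 CPM in those of day 20, against 155 and 157 CPM in adult mCD. The UB libraries of day 20 lay above those of adult mCD, and the difference of -0.11 ± 0.09 (SE) in log2 between adult mCD and day 20 did not pass the test (adjusted p = 0.341). From day 5 to day 10 the log2 fold change was 0.14 with an adjusted p of 0.239, and it was -0.017 without the second library of day 10. From day 10 to day 20 it was 0.27 with an adjusted p of 0.0378. No member was called in either step, against 2.34% of the 24410 genes tested called higher and 1.07% lower from day 5 to day 10, and 1.66% higher and 1.73% lower from day 10 to day 20. By DESeq2 0 were called as well. At an unadjusted p under 0.05 with no limit on the fold, 2 members were higher and 1 lower in the first step. In the second step 3 were higher and 1 lower. The share of all genes passing this threshold was not counted, so these counts do not set the members apart. After adjustment Tfcp2l1 in both steps and Kit in the second remained under 0.05.

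**Figure D1:**
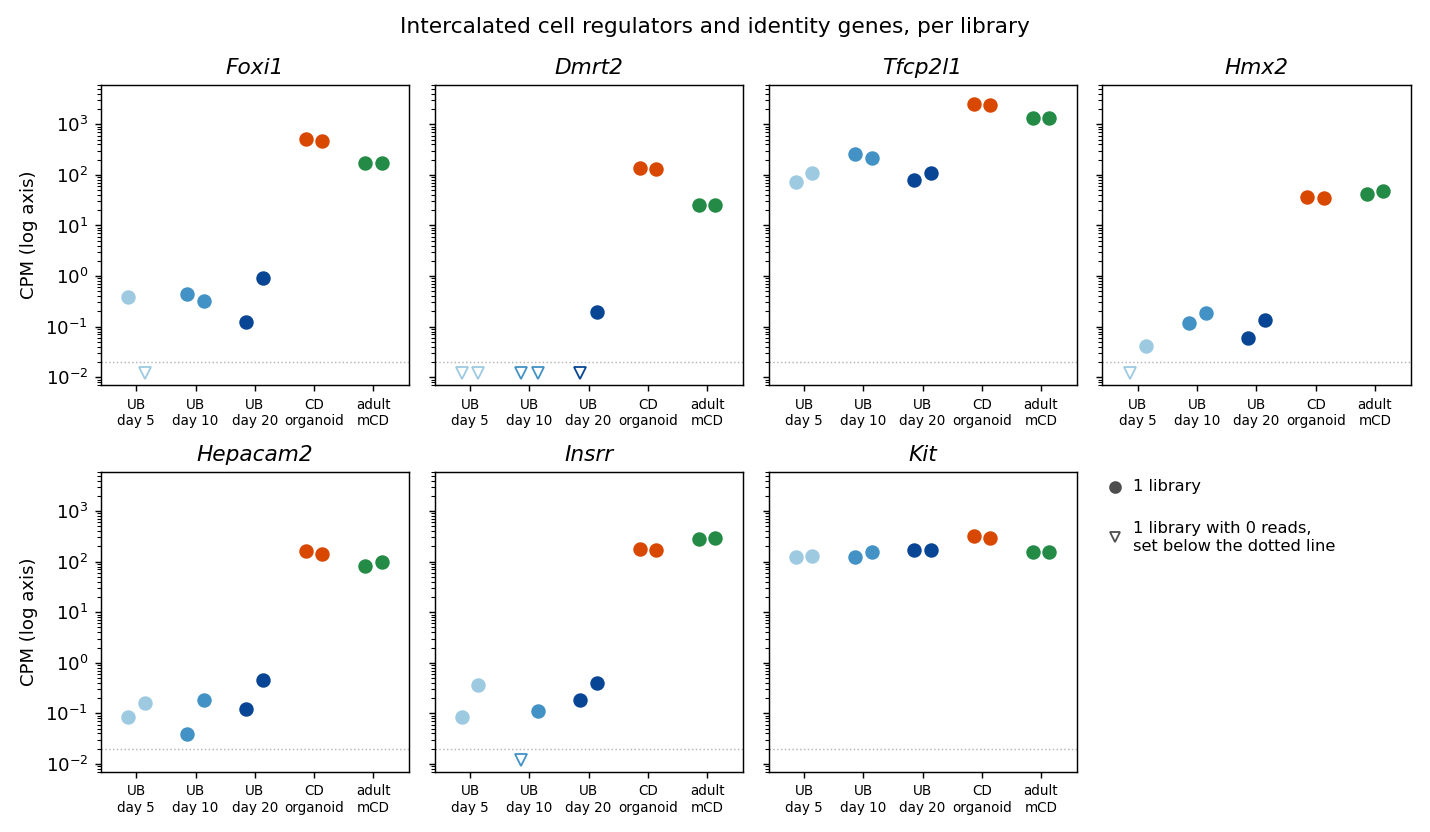
CPM of the 7 genes in each of the 10 libraries, on a log axis, with a point per library and an open triangle for a library with 0 reads. 5 genes move from under 1 CPM in all UB organoids to at least 25.6 CPM in CD organoids and adult mCD, while Tfcp2l1 starts at 71.1 CPM or more and Kit stays between 124 and 326 CPM throughout.

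The CD organoids were set against UB organoids of day 10, the stage from which the study's methods start them, to ask which IC genes came on during differentiation. The labels do not say that they came from these same day 10 cultures. 6 of the 7 genes were called higher and Kit was not, against 4.96% of all genes tested called higher and 5.71% lower. For all 7 the CD libraries lay above the UB libraries. Libraries of the 2 groups were also apart, in either direction, for 12 of the 15 tested paralogs of members and ligand of Kit. The share of all genes separated in this way was not counted. By edgeR, 37.8% of all genes tested had an adjusted p under 0.01 here, regardless of fold and direction. In bulk RNA, a larger share of expressing cells and more RNA per cell cannot be told apart. Nor are all members confined to ICs, since the paper gives Tfcp2l1 as expressed in both PCs and ICs. Foxi1 stood at 508 and 472 CPM in the CD organoids against 0.436 and 0.328 CPM at day 10, a rise of 10.14 ± 0.28 (SE) in log2 (adjusted p = 1.09e-11). Dmrt2 stood at 136 and 130 CPM against 0 reads, and was at least 1168-fold higher (adjusted p = 3.24e-11). For each gene the 2 CD libraries lay close together, so the rise was far larger than the spread between libraries. Tfcp2l1 stood at 2535 and 2377 CPM and rose by 3.38 ± 0.18 (SE) in log2 (adjusted p = 2.93e-09). Hmx2 stood at 35.8 and 35.0 CPM, a ratio of 233 with a 95% counting interval of 118 to 541 (adjusted p = 2.1e-11).

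Of the surface proteins, Hepacam2 and Insrr followed the same course from a similar start. Hepacam2 stood at 164 and 144 CPM against 0.0397 and 0.182 CPM, a ratio of 1356 with an interval of 622 to 3700 (adjusted p = 3.54e-12). Insrr stood at 180 and 171 CPM against 0 and 0.109 CPM, and its ratio of 3084 rests on 3 reads at day 10, with an interval of 1050 to 15000 (adjusted p = 1.92e-12). The upper ends of these intervals are wide because the bud supplied so few reads. Without the second library of day 10 the fitted log2 fold change went from 9.84 to 10.64 for Hepacam2 and from 10.63 to 11.58 for Insrr, and both were still called. Kit stood at 326 and 296 CPM in the CD organoids, 1.16 ± 0.09 (SE) in log2 above day 10 (adjusted p = 1.12e-07), and missed the 4-fold.

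Against UB organoids of day 20, which are closer to the CD organoids in total time in culture, the same 6 genes were called higher, with 4.74% of all genes called higher and 4.73% lower. The CD libraries are shared with the comparison above, so this is not a separate replication. Foxi1 rose by 9.77 ± 0.29 (SE) in log2 (adjusted p = 2.81e-11) and Tfcp2l1 by 4.71 ± 0.19 (adjusted p = 3.73e-10), the latter from a lower start than at day 10. Kit was 0.89 ± 0.09 (SE) in log2 higher (adjusted p = 1.81e-06) and missed the 4-fold. The 2 libraries of day 20 differed in the low genes, with more reads in the second for each of the 5. Umod and Kcnj1, with 53518 and 25566 reads in adult mCD, gave 0 reads at day 10 and 34 and 38 at day 20. Pvalb, with 1351 reads in adult mCD, went the other way, from 4 reads at day 10 to 1 at day 20. The source of the low genes' reads at day 20 was not tested. Without the second library of day 20 the fitted log2 fold changes of Foxi1, Dmrt2 and Hepacam2 went from 9.77, 9.80 and 8.83 to 11.45, 11.29 and 9.78, and without the first library they went to 8.96, 9.04 and 8.22. All were called each time.

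**Figure D2:**
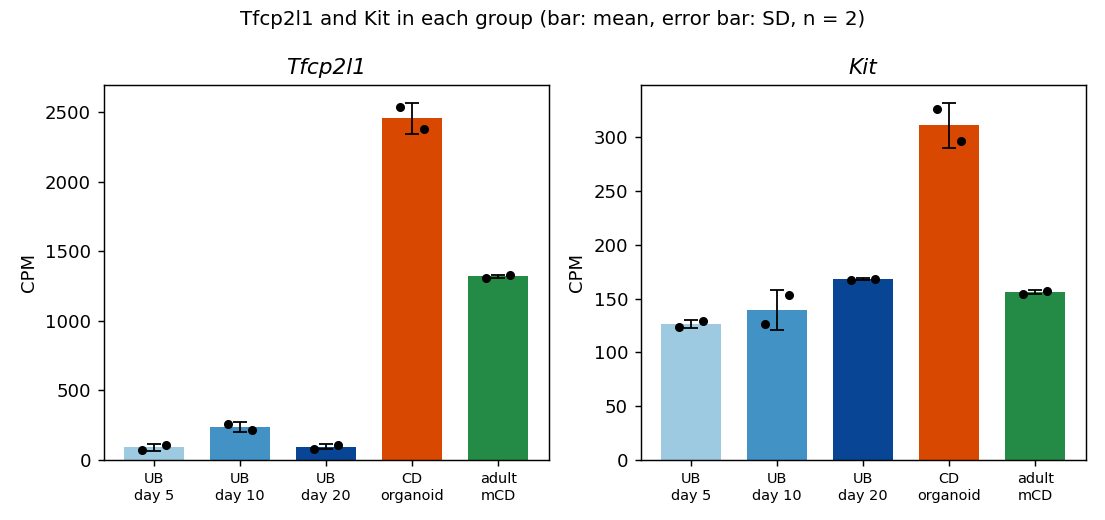
CPM of Tfcp2l1 and Kit, the members at 71.1 CPM or more in every library, on linear axes with bars for the mean of 2 libraries, error bars for the SD and points for the libraries. Tfcp2l1 peaks at day 10 within the UB organoids and is about 10.4-fold higher in CD organoids than there, while the Kit bars differ by less than 4-fold between all groups.

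The adult cells were the reference for how far the CD organoids had gone. Before that comparison, adult mCD was set against UB organoids of day 20. 6 of the 7 genes were called higher, Kit again being the exception, against 12.3% of all genes called higher and 6.89% lower. With library totals in place of TMM factors the calls over all genes split into 2469 higher and 2420 lower instead of 3005 and 1683, and the median gene moved by -0.44 in log2. Among the members other than Dmrt2 and Hmx2, Insrr showed the largest rise, by 9.72 ± 0.22 (SE) in log2 (adjusted p = 7.87e-13), followed by Foxi1 at 8.24 ± 0.30 and Hepacam2 at 8.07 ± 0.24. Dmrt2 and Hmx2 are left out of that order because each rested on 3 reads at day 20. Without the second library of day 20 the log2 fold changes of Foxi1, Dmrt2 and Hepacam2 went from 8.24, 7.42 and 8.07 to 9.93, 8.93 and 9.04, and without the first to 7.44, 6.68 and 7.47, a setting in which Hepacam2 came before Foxi1. Insrr stayed ahead of both, at 10.25 and 9.32.

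CD organoids and adult mCD differed in how much of each gene they held. By immunostaining for AQP2 and FOXI1, the paper counted a higher proportion of ICs in CD organoids than in neonatal and adult kidney. The part of this proportion in the levels below was not tested. Dmrt2 stood at 136 and 130 CPM in the CD organoids and 25.6 CPM in each adult library, or 520% of the adult level, a log2 fold change of 2.38 ± 0.13 (SE) (adjusted p = 2.76e-08). It was the only member called, by edgeR and by DESeq2, and 0 were called lower, against 4.50% of all genes called higher and 9.84% lower. At an unadjusted p under 0.05 with no limit on the fold, 5 members were higher and 2 lower. These counts do not set the members apart, because differences were common in this comparison. Regardless of fold and direction, 40.2% of all genes tested had an adjusted p under 0.01. Foxi1, at 508 and 472 CPM against 169 CPM in each adult library, stood at 290% of the adult level, 1.54 ± 0.16 (SE) in log2 higher (adjusted p = 2.35e-06). Tfcp2l1, at 2535 and 2377 CPM against 1311 and 1327 CPM, stood at 186%. So 3 of the 4 transcription factors were above the adult level in both CD libraries, and of these only Dmrt2 passed the 4-fold. Hmx2 stood at 35.8 and 35.0 CPM against 41.9 and 46.9 CPM, or 79.6%, and its log2 difference of -0.33 ± 0.13 (SE) did not pass the test (adjusted p = 0.0539).

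The surface genes went both ways. Kit, at 326 and 296 CPM against 155 and 157 CPM, stood at 199% of the adult level, 1.00 ± 0.09 (SE) in log2 higher (adjusted p = 5.26e-07). Hepacam2, at 164 and 144 CPM against 83.5 and 99.0 CPM, stood at 169%, 0.75 ± 0.12 higher (adjusted p = 0.000151). Insrr was below the adult level, at 180 and 171 CPM against 280 and 291 CPM, or 61.5%, a log2 difference of -0.70 ± 0.11 (adjusted p = 0.000117). None of these 3 differences reached 4-fold, and in each the CD and adult libraries did not overlap. Such separation was common in this comparison, as it held for 12 of 14 IC transport genes and 9 of 9 PC genes. Of the latter, Avpr2 lay near the limit of detection. Separation also held for 11 of the 15 tested paralogs of members and ligand of Kit. The share of all genes separated in this way was not counted.

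These directions depend in part on the scaling. With library totals in place of TMM factors the median gene moved by 0.38 in log2 towards the CD organoids, and the calls over all genes split into 1607 higher and 2010 lower instead of 1098 and 2401. The Hmx2 difference then turned to 0.065, and that of Insrr shrank to -0.31 (adjusted p = 0.029). Over all alternatives the adjusted p rose to 0.714 for Insrr and 0.106 for Hepacam2, both by limma. Over all alternatives Foxi1 ranged from 1.48 to 1.93 in log2 and its adjusted p rose to 0.283 by DESeq2 and 0.108 by limma, while Dmrt2 ranged from 2.33 to 2.77 with an adjusted p of at most 0.0034. The RNA of other nephron segments and of endothelium in the adult cells, given above, moves with this comparison as well, and its part in the levels was not tested.

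A ratio of members within a library is free of that scaling. Per kb of exon, Insrr was read at 0.146 and 0.149 of the Foxi1 level in the CD organoids and at 0.681 and 0.711 in adult mCD. Hmx2 was read at 0.0516 and 0.0543 against 0.181 and 0.204, and Hepacam2 at 0.129 and 0.122 against 0.198 and 0.236. Dmrt2 went the other way, at 0.270 and 0.277 of Foxi1 in the CD organoids and 0.152 and 0.153 in adult mCD. The members therefore did not differ by a common factor between the organoids and the adult cells, and in none of these ratios did the libraries of the 2 groups overlap. Tfcp2l1 was read at 1.25 and 1.26 of Foxi1 in the CD organoids and at 1.93 and 1.97 in adult mCD, and Kit at 0.170 and 0.166 against 0.241 and 0.247.

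The order of the genes by CPM per kb of merged exon changed accordingly. In the CD organoids Tfcp2l1 came first, at 269 and 252 CPM per kb, followed by Foxi1 at 215 and 200 and by Dmrt2 at 58.2 and 55.6. Kit at 36.6 and 33.3, Insrr at 31.5 and 29.9 and Hepacam2 at 27.9 and 24.6 CPM per kb came next, each pair of neighbours among these 3 apart by less than the gap between the libraries of 1 of them. Hmx2 was last at 11.1 and 10.9. In adult mCD Tfcp2l1 at 139 and 141 CPM per kb and Foxi1 at 71.9 and 71.6 again led, but Insrr came next at 49.0 and 50.9 and Dmrt2 was last, at 10.9 in each library. Kit, Hepacam2 and Hmx2 lay between them, and the libraries of Hepacam2, at 14.2 and 16.9, overlapped those of Hmx2, at 13.0 and 14.6. In the UB organoids Kit led at days 5 and 20 and Tfcp2l1 at day 10, where it stood at 27.5 and 22.6 CPM per kb against 14.2 and 17.2 for Kit.

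**Figure D3:**
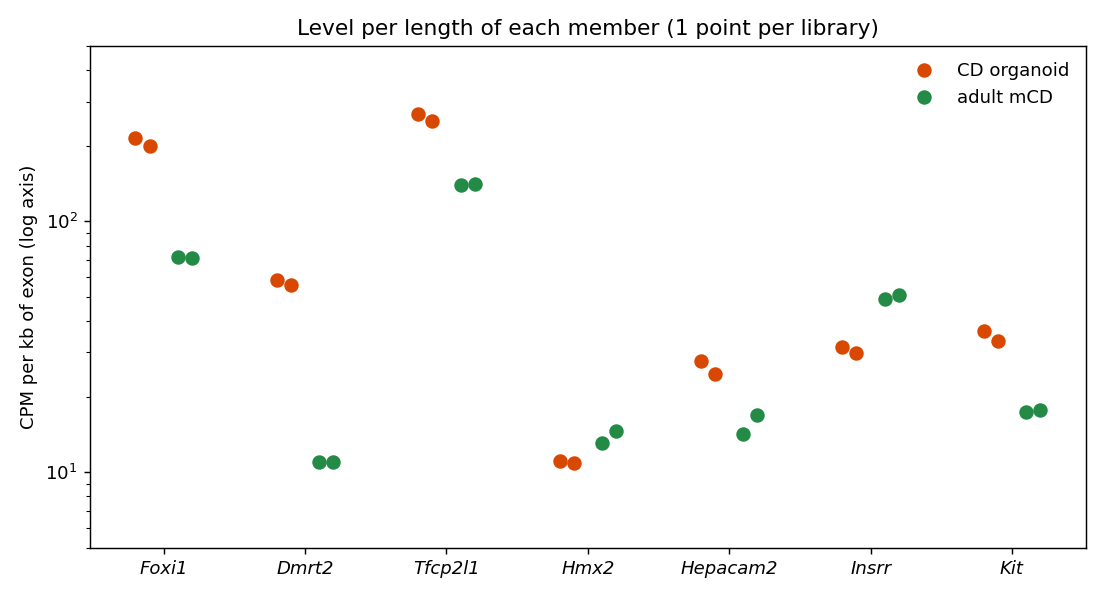
CPM per kb of merged exon for the 7 genes in CD organoids and adult mCD, on a log axis with a point per library. Tfcp2l1 and Foxi1 lead in both, Dmrt2 follows them in CD organoids at 58.2 and 55.6 and last in adult mCD at 10.9, and Insrr is the gene with the clearest excess in adult mCD.

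The transport genes of ICs, which carry out acid and base secretion, came on with the members, and 7 of them were called under the adult level. Of 14 such genes, 13 were called higher in CD organoids than at day 10, with a median log2 fold change of 6.28 over the list and -0.15 over all genes tested, beside 9.84 over the members. Against adult mCD edgeR called 0 of the 14 higher (0 also at an unadjusted p under 0.05) and 7 lower, with a median of -2.19, beside 0.90 over the members and 0 over all genes. Slc4a9, a bicarbonate transporter of base-secreting ICs, stood at 491 ± 12.8 CPM (SD, n = 2) in the CD libraries and 534 ± 28.5 in adult mCD (adjusted p = 0.56). Atp6v1b1, a subunit of the IC proton pump, stood at 415 ± 20.3 CPM against 606 ± 14.7, a log2 difference of -0.55 (adjusted p = 9.44e-05). Slc4a9 was thus near the adult level and Atp6v1b1 below it, and the carbonic anhydrase genes Car2 and Car12 lay further below. Car2 stood at 213 ± 5.83 CPM against 1175 ± 21.9 and was called lower, and Car12 at 303 ± 0.142 CPM against 1145 ± 55.7, short of 4-fold. Chosen after their values were seen, the anion exchanger Slc4a1 of acid-secreting ICs stood at 2.51 ± 0.376 CPM against 538 ± 10.8, a log2 fold change of -7.70 ± 0.17 (SE) (adjusted p = 1.72e-12), and the exchanger Slc26a4 (pendrin) of base-secreting ICs at 50.1 ± 8.48 CPM against 298 ± 17.8, a log2 fold change of -2.57 ± 0.11 (adjusted p = 1.44e-09).

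Of 5 further IC genes, all 5 were called higher in CD organoids than at day 10, with a median of 6.95. Against adult mCD 1 was called higher and 2 lower, with a median of -1.50. The one called higher was P2ry14, a receptor for UDP-sugars, at 86.6 ± 1.74 CPM (SD, n = 2) against 14.4 ± 1.48 in the adult cells, with a log2 fold change of 2.58. Those called lower were Clnk and Oxgr1, the latter a receptor for oxoglutarate, at 0.503 ± 0.309 CPM against 138 ± 2.19. Adgrf5 and the vasopressin receptor gene Avpr1a stood at 240 ± 25.1 and 37.2 ± 2.58 CPM against 681 ± 31.1 and 52.8 ± 2.54. With Dmrt2, P2ry14 was the only IC gene of these lists called above the adult level.

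**Figure D4:**
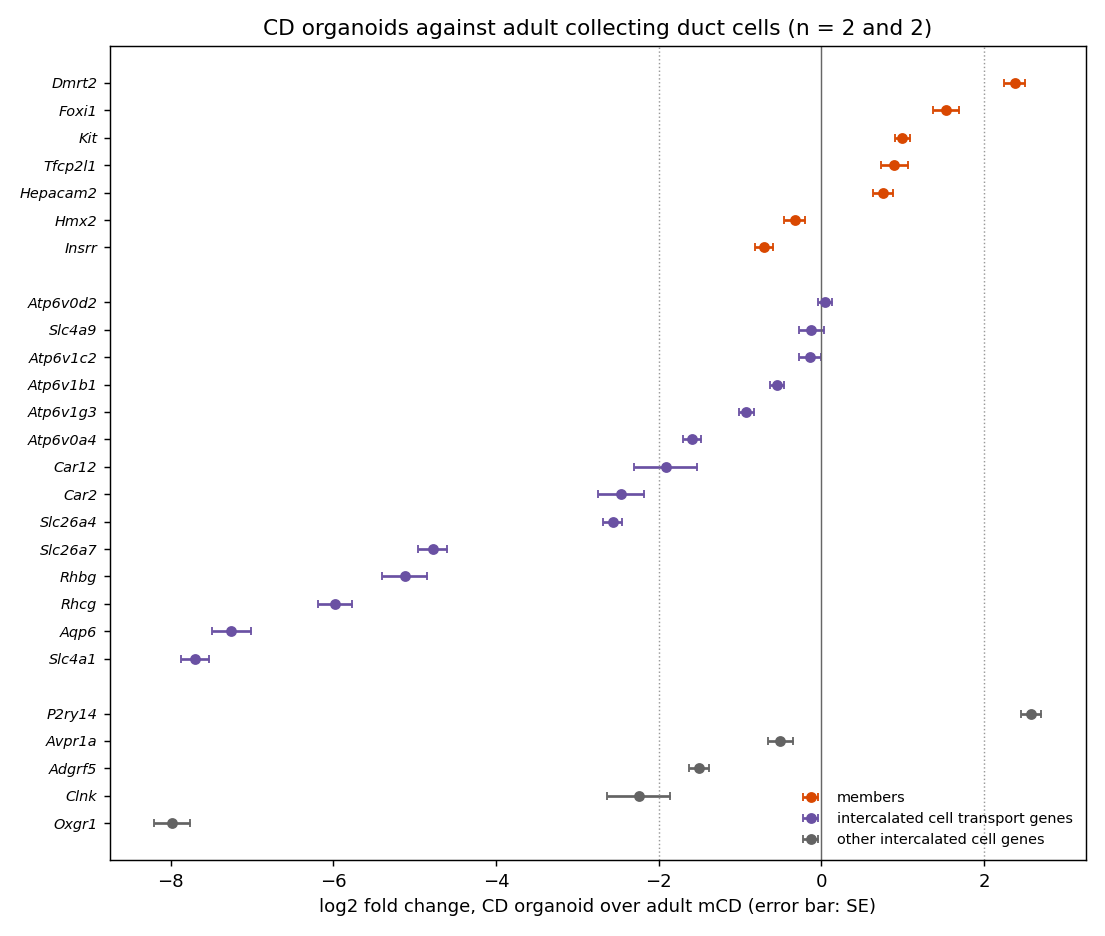
Log2 fold change of CD organoids over adult mCD for the 7 members, 14 IC transport genes and 5 other IC genes, with points for the fitted value, error bars for the SE and dotted lines at 4-fold. 5 members lie to the right of 0, while 13 of the 14 transport genes lie to the left of it, down to -7.70 for Slc4a1.

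The paralogs of the members and the ligand of Kit were mostly not called. Of 19 listed genes 18 were in the table and 15 were tested, Foxi2 was not analysed here, and in CD organoids against day 10 2 were called higher and 2 lower, with a median of -0.35, or 0.05 with genes at 0 reads set to the limit of detection. Those higher were Hmx3, the neighbour and paralog of Hmx2, at 0.779 ± 0.308 CPM (SD, n = 2) against 0.0975 ± 0.0864, and Pdgfra, a receptor of the Kit family, at 13.5 ± 5.53 against 2.82 ± 0.274. Those lower were Foxi3, at 0.775 ± 0.142 CPM at day 10 and with 0 reads in CD organoids and adult mCD, and Dmrta1. Dmrta1 was called higher in both steps of UB culture, at 0.483 ± 0.163, 3.43 ± 1.65 and 17.3 ± 0.730 CPM on days 5, 10 and 20, and stood at 0.294 ± 0.189 CPM in CD organoids. Tfcp2, the ubiquitous relative of Tfcp2l1, stood between 34.1 and 51.3 CPM on average in every group, and Ubp1 between 74.6 and 117 CPM. Insr, the insulin receptor gene, stood between 112 and 156 CPM and Igf1r between 240 and 642 CPM, with neither called in CD organoids against day 10 or against adult mCD. Kitl, which encodes the ligand of Kit, stood at 75.8 ± 2.68 CPM at day 10, 105 ± 0.457 in CD organoids and 197 ± 3.89 in adult mCD, and was not called in either comparison. Dmrt1, Dmrta2, Hepacam and Flt3 stayed under 1 CPM on average in each group, and Pdgfrb and Csf1r, at 31.8 ± 2.14 and 28.1 ± 2.74 CPM in adult mCD, were called lower in CD organoids.

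Genes of the Notch pathway were listed with the PC fate factor Elf5, since CDDM contained DAPT. Of 12 genes, 2 were called higher in CD organoids than at day 10, the ligand genes Dll1 and Dll4, with a median of 0.58 over the list. Dll1 stood at 34.9 ± 1.60 CPM (SD, n = 2) against 2.16 ± 0.249 and Dll4 at 27.4 ± 0.168 against 0.685 ± 0.0405. Notch1, Adam10 and Mib1, which encode a receptor, a protease that cleaves it and a ligase that activates its ligands, were not called. Hes1, a transcription factor that Notch switches on, stood at 29.0 ± 0.504 CPM at day 10, 630 ± 83.6 at day 20, 47.8 ± 0.123 in CD organoids and 228 ± 13.0 in adult mCD. It was therefore called lower in CD organoids against day 20, by a log2 fold change of -3.72 ± 0.16 (SE), and against adult mCD, by -2.25 ± 0.16, and not called against day 10. Against day 20, Dll1, Dll4 and Elf5 were called higher. Against adult mCD, Hes1, Heyl and Nrarp were called lower by edgeR and 0 higher, with 3 higher and 7 lower at an unadjusted p under 0.05.

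The markers of PCs moved with the members as well. Of 9 genes, 7 were called higher in CD organoids than at day 10 and 6 lower than in adult mCD, with medians of 3.46 and -2.57. Aqp2, the vasopressin-regulated water channel, stood at 559 ± 104 CPM (SD, n = 2) in the CD libraries and 4458 ± 118 in adult mCD. Aqp3 stood at 21.3 ± 3.23 CPM against 1920 ± 40.2, Hsd11b2 at 38.7 ± 8.37 against 2604 ± 43.0 and Scnn1b at 326 ± 19.7 against 857 ± 39.3. By position all 9 PC genes lay below the adult level, whereas 5 of the 7 members lay above it and 2 below. Among the 9, Avpr2 gave 0 reads in CD organoids and 6 in adult mCD, near the limit of detection.

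Kit also marks mast cells and melanocytes, and markers of these cells were therefore read as well. Of 6 mast cell genes 3 were in the table, and they summed to at most 0.0793 CPM in UB organoids, to 0 in CD organoids and to at most 0.472 CPM in adult mCD, with Cpa3 and Cma1 at 0 in the last 2 groups. The 4 melanocyte genes summed to between 1.10 and 3.85 CPM over all libraries, with Dct and Tyr at 0 in UB and CD organoids. The part of these cells in the Kit level was not tested. The sum of 5 leukocyte genes moved with the members, from 2.43 and 4.12 CPM at day 5, 6.42 and 7.95 CPM at day 10 and 12.74 and 13.95 CPM at day 20 to 46.1 and 52.2 CPM in CD organoids and 54.7 and 55.1 CPM in adult mCD. Of these genes Ptprc was called higher in CD organoids than at day 10, at 40.6 CPM on average against 3.67 CPM (log2 fold change of 3.45, adjusted p = 1.12e-09). Cd68 stood at 8.43 CPM on average in CD organoids. Csf1r, Cd3e and Lyz2 did not move with the members, with 3, 1 and 1 reads in CD organoids. In adult mCD Ptprc stood at 15.2, Csf1r at 28.1 and Lyz2 at 5.58 CPM on average, so the 2 sums rested on unlike mixes of genes. The part of leukocyte RNA in the members' levels was not tested.

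By the pattern over the 10 libraries, 6 of the members were alike and Kit stood apart. Pearson's r of log2(CPM + 0.1) between pairs of the 6 lay between 0.919 and 0.992, and between Kit and each of them between 0.64 and 0.777. These values, like those that follow, describe 10 libraries in 5 groups and are carried mostly by the step from UB organoids to duct. Among 10538 genes with a mean of at least 10 CPM, those most like Hepacam2 were Atp6v0d2, a proton pump subunit gene (r = 0.9953), Prkag2, Slc4a9, Mindy1 and Fbxo8. Those most like Hmx2 were Avpr1a (r = 0.9977), Pigr, Spire2, Fbxo4 and Trim56, and those most like Insrr were Lgals3bp (r = 0.9973), Tmco4, the proton pump gene Atp6v1e1, Ctsa and Kif13b. Genes of the IC transport list thus stood among the 5 nearest for Hepacam2 alone of the surface members. Atp6v1e1, near Insrr, is not in that list. For Foxi1 they were Syn2 (r = 0.9944), Cyp4v3, Serpinb6b, Asb15 and Mindy1, for Dmrt2 Prkag2 (r = 0.9964), Mvp, Gm12121, Fbxo8 and Vapb, and for Tfcp2l1 Plekha6 (r = 0.9955), Pde7b, Calm3, Clu and Pts. Kit had the weakest best match, Slc25a29 (r = 0.9873), followed by Limk2, Pfkfb2, Tbc1d20 and Slc2a6.

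The members lie on 7 chromosomes, so they are not neighbours in the genome. On GRCm38 with GENCODE M21 they are Foxi1 at chr11:34204338-34208089 (minus strand), Dmrt2 at chr19:25672411-25678991, Tfcp2l1 at chr1:118627945-118685168, Hmx2 at chr7:131548773-131558014, Hepacam2 at chr6:3457096-3498298 (minus strand), Insrr at chr3:87796951-87816101 and Kit at chr5:75574916-75656722, the others on the plus strand. Hmx2 overlaps Fgfr2 and Insrr overlaps Pear1 on the opposite strand, and since the sources used here do not say that the counting used strand, reads of such a pair cannot be told apart. In UB organoids Hmx2 gave at most 5 reads per library and Insrr at most 9. The part of Fgfr2 and Pear1 in the Hmx2 and Insrr levels of CD organoids and adult mCD was not tested. This holds also for the higher Insrr level in adult mCD.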

How the data were processed

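Counts, RPKM values and scaled counts were deposited for 10 libraries of 5 groups, grouped by the sample titles. The study's methods describe trimming and STAR alignment to mm10 in Partek Flow with GENCODE M24 and Partek's E/M model, a model that divides reads among near-identical genes, whereas the submitters' processing notes name FastQC 0.11.8, cutadapt 2.5, Trimmomatic 0.36, STAR and edgeR 3.28.1 with GRCm38.p6. The labels name QIAgen RNeasy and Illumina TruSeq, the methods other kits. The deposited counts are whole numbers per gene. The deposited RPKM values were used only to check columns, since the length the authors divided by is close to the summed exon length of all transcripts and exceeds the merged length 2.14-fold for Kit and 2.25-fold for Insrr. Levels of the members were ranked against each other per kb of merged exon (GENCODE M21, which holds 99.7% of the identifiers). Genes were picked for promoters by reads and for naming by CPM, without regard to length. The deposited signal called TMM values, counts scaled to equal library totals, served 1 alternative.

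The counts were tested in R 4.3.3 by edgeR 4.0.16 (quasi-likelihood test), with all 10 libraries in a fit of 5 group means, TMM factors from 0.792 to 1.12 and a prior count of 1. The 24410 genes with at least 10 counts in all were tested. Genes were called at an adjusted p (Benjamini-Hochberg over all genes tested) no higher than 0.01 and over 4-fold change, and SEs were derived from the test statistic. The common dispersion was 0.00831, and the test rests on this shared spread, as each group has 2 libraries. A fold against 0 reads is a lower bound against 3 counts per library, and a ratio against few reads has an exact 95% binomial counting interval, both covering counting error only, as reads carry no molecular identifiers. On simulated data for CD organoids against day 10, 200 of 200 genes changed by 3 in log2 were called among 23649 genes, and 0 others were.

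The members and all lists were chosen with earlier results of these data known. Named are all members, the 4 genes with the highest mean CPM of each IC, Notch and PC list, all paralogs with at least 10 counts and the 5 genes most like each member. For lists of other cell types the summed levels are given, and further list genes were named for their calls after their values were seen. Lists covered IC transport genes, other IC genes, paralogs, Notch, PC, UB tip, mast cells, melanocytes, leukocytes, endothelium, proximal tubule and the loop of Henle with the distal convoluted tubule. Alternatives were a prior count of 5, no filter, filterByExpr, median-ratio factors, library totals, DESeq2 1.42.0, limma 3.58.1 on log2(TMM value + 1), the 4 libraries compared alone, a threshold of 0.05 on the adjusted p with no limit on the fold, a replicate block and leaving out each library. Replicates differed by more than sampling noise, with a chi-square per degree of freedom of 10.7 at day 5 and 25.4 at day 10. In day 20, CD organoids and adult mCD it was 2.88, 2.73 and 4.97. The fit shares its spread over the groups, so SEs and p-values of comparisons with days 5 and 10 may be too small. Python 3.11.15, pandas 2.3.3, numpy 2.4.6, scipy 1.17.1 and matplotlib 3.10.9 were used. Human organoids and the primary UB and progenitor libraries were not used here.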

Additional observations from a re-analysis of the deposited data

How the results depend on the processing

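The numbers of members called higher or lower stayed within 1.5 times under 163 checks, and the 5 that moved all came from a threshold of 0.05 on the adjusted p with no limit on the fold, which called 1 higher from day 5 to day 10, 1 higher and 1 lower from day 10 to day 20, and 5 higher and 1 lower in CD organoids against adult mCD. A member's log2 fold change kept its direction and call in 413 checks. The 3 that turned were Kit from day 5 to day 10 without the second day 10 library (-0.017) and Hmx2 in CD organoids against adult mCD with library totals (0.065) and limma (0.067), and none was called before or after. Leaving out each library in turn, that Kit value ranged from -0.017 to 0.26. With any library left out, 0 members were called between UB days, 6 in each comparison of CD organoids or adult mCD with UB organoids, and 1 in CD organoids against adult mCD. With a replicate block 6 members were called in CD organoids against day 10. The replicate numbers do not pair the libraries, as the deviations correlated between -0.0231 and 0.0918. A lone library left in a group is assumed to vary like the others. The ratios of the 5 low genes against UB organoids are limited by depth, and their fitted folds fell with a prior count of 5, for Dmrt2 against day 10 from 11.26 to 8.94 in log2.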
